A study of Mus musculus with 5 samples.

Results

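The window described here runs from 87215000 to 87330000 on mouse chromosome 8 (mm9) and holds Lyl1 and Nfix, neighbouring transcription factor genes of blood progenitors. Its members are the 597 CpGs, of 1015 listed there in any library, whose second count, a measure of depth defined further on, reached 10 in each of the 5 libraries; the whole series has 1780536 such CpGs on the autosomes. The window was picked from the values themselves, because the 1 kb tile from 87245001 to 87246000, called the selected tile, was near 0 in K36M and high in K9M. The levels of K36M against K9M in that tile are therefore given as a description, with no test. DNA methylation was measured by reduced representation bisulfite sequencing, which cuts genomic DNA with MspI and so reads CpG-rich fragments after bisulfite treatment. The 5 libraries were 1 WT library from wildtype mice and 2 libraries each of K36M and K9M. The mutants carry a dominant negative histone H3.3 with a methionine in place of lysine 36 or lysine 9. The K36M and K9M mice were induced with 2 mg/ml doxycycline in the drinking water; the labels name no promoter or cell type for the transgene, no age and no strain, and name no doxycycline for WT. Doxycycline and genotype cannot be told apart against WT, while both mutants received it. The labels give HSCs (hematopoietic stem cells) as the source but peripheral blood as the material sorted, and methylation alone gave no check of the cell type. Whether replicates came from separate animals is not stated, so the p-values rest on a spread between libraries that may be technical. Each library averages many cells, so methylation lost from all cells and a smaller share of methylated cells cannot be told apart.

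A methyl group on the cytosine of a CpG is placed by Dnmt3a and Dnmt3b and copied at each division by Dnmt1. Dnmt3a and Dnmt3b bind histone H3 methylated at lysine 36, a mark found along transcribed gene bodies and in broad intergenic domains, and lysine-to-methionine mutants of H3 inhibit the enzymes that methylate the same residue. Lyl1 is a basic helix-loop-helix transcription factor, a close relative of Tal1, active in blood stem and progenitor cells. Nfix belongs to the nuclear factor I family, DNA-binding proteins with roles in stem and progenitor cells of blood, muscle and brain.

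Levels are given as the relative level, in percent of a plateau. In WT, both K36M libraries and K9M replicate 1 the deposited total was read as a methylated count plus a second count, used here as the measure of depth, while in K9M replicate 2 the total was read as the second count alone. Methylated over second count was then scaled to its plateau, the ratio at the most methylated tiles of that library (1.23 for WT, 1.22 and 1.26 for K36M, 1.37 and 0.954 for K9M). A relative level can pass 100%. In K9M replicate 2 the ratio is the deposited fraction and cannot pass 1, so no CpG of the window passed 104.8% there. In K9M replicate 1 the highest CpG reached 122.5%. This reading of the deposited columns was inferred from the values, and every level below rests on it. Deposited totals ran from 111738339 to 174743796 over all CpGs listed per library, and the median second count of the 597 CpGs was 34 to 44 per library.

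The genes were placed on the files' positions through their promoters, since the sequences at hand belong to GRCm38.p6 and the files to mm9. The spacing of the CpGs in each RefSeq promoter was matched to the spacing of listed CpGs. All 7 CpGs of the Lyl1 promoter matched listed positions, where the next best place on chromosome 8 matched 3. Of 4 Nfix promoters in the table, 2 were placed, with 6 of 9 and 6 of 13 CpGs, and the second had an equally good match elsewhere on the chromosome. G430095P16Rik, a long non-coding RNA gene that the GRCm38.p6 table puts inside Nfix, was placed with 3 of 5 CpGs, and another place on the chromosome also matched 3. These placements have the distances of GRCm38.p6 to the promoter of Ccdc130, a gene further to the left placed with 21 of 21 CpGs. That requirement was added after the values had been seen. In the order of that table Trmt1 lies to the left of Lyl1, Nfix follows Lyl1 directly and is transcribed towards it, and Dand5 lies to the right of Nfix. No exon, intron or UTR was assigned, because no mm9 annotation was used here.

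The promoters are shown because those of Lyl1 and G430095P16Rik were near 0 in all libraries, close to CpGs that were lower in K36M. Each is the 250 bases before a start site, from RefSeq (GRCm38.p6), 5′ to 3′ on the gene's strand, with capitals at the CpGs that count as members. Lyl1 lies on the plus strand at chr8:87225106-87225355, G430095P16Rik on the plus strand at chr8:87246706-87246955 and the Nfix promoter nearest to them on the minus strand at chr8:87297310-87297559, in mm9 positions from the matched spacing. The MspI site CCGG, which reads the same on both strands, occurs 2 times in the Lyl1 stretch and 1 time in each of the others, and 47.1% of the 32851 promoters in the table hold it in the same 250 bases.
Lyl1: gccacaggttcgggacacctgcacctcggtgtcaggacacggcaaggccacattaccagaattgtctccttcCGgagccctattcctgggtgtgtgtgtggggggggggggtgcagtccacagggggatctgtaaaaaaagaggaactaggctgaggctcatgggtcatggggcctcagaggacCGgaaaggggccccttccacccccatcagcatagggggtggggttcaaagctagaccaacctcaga
G430095P16Rik: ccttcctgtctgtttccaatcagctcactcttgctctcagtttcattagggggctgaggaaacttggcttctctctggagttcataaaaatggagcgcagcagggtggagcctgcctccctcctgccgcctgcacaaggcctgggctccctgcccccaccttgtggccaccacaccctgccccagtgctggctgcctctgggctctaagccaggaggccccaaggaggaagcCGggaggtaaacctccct
Nfix: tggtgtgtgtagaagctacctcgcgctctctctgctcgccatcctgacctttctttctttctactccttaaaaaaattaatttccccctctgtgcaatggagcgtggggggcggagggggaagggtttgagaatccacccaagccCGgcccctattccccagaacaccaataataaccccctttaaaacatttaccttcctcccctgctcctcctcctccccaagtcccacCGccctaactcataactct

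The Lyl1 promoter was unmethylated in all 3 groups. Its 4 measured CpGs, counted over the 300 bases that run 50 past the start site, had 0 methylated counts in WT, in both K36M libraries and in K9M replicate 1, and 2 methylated counts in K9M replicate 2, a level of 1.25%. A count of 0 allows up to 1.48% in WT, 2.06% and 1.99% in K36M and 2.04% in K9M replicate 1, for counting error only. The tile that holds it, from 87225001 with 24 CpGs, stood at 0.278% in WT, 0.834% and 0.308% in the K36M pair and 0.0811% and 0.456% in the K9M pair. The groups overlapped there, and K36M minus WT was 0.293 points (adjusted p = 1.0 by the moderated logistic model).

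The lncRNA promoter was likewise near 0, and it lies just to the right of the selected tile. Its 3 CpGs had 0 methylated counts in WT and K36M replicate 1, which allows up to 1.86% and 3.29%, and stood at 1.34% in K36M replicate 2 and at 0.800% and 1.98% in K9M. Only 1 of the 4 Nfix promoters was placed and had measured CpGs, and it was partly methylated. Its 4 measured CpGs stood at 42.8% in WT, 32.5% and 29.9% in K36M replicates 1 and 2, and 40.8% and 57.7% in K9M. Second counts were 100 to 130 per library. Both K36M libraries were below the other 3, while WT lay within the range of K9M. The tile around it, from 87297001 with 11 CpGs, was at 13.1% in WT, 10.2% and 9.55% in the K36M pair and 16.6% and 17.4% in the K9M pair, and K36M minus WT was -3.27 points (adjusted p = 1.0 by the same model). The other placed Nfix promoter had no CpG with enough counts in all libraries.

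In the selected tile the K36M libraries had nearly none of the methylation seen in the others. Pooled over the tile, WT had a relative level of 61.5% (95% exact counting interval 53.3% to 70.8%), against 3.66% in K36M replicate 1, 3.49% in K36M replicate 2, 79.7% in K9M replicate 1 and 92.4% in K9M replicate 2. K36M averaged 3.57% ± 0.123 (SD, n = 2), and K9M averaged 86.1% ± 8.97 (SD, n = 2). As deposited, without the plateau, the same tile read 43.1% in WT, 4.26% and 4.20% in K36M replicates 1 and 2, and 52.3% and 88.2% in K9M, where the last value is on the other scale. Both K36M libraries lay far below the other 3 on either scale, and WT lay between the mutants.

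All 15 CpGs of the selected tile were lower in both K36M libraries than in any other library. K36M replicate 1 had 0 methylated counts at 8 of them and K36M replicate 2 at 8 of them, on second counts of 16 to 53 and 11 to 81 per CpG. The leftmost CpG, at 87245547, stood at 81.0% in WT, 14.2% and 9.17% in the K36M pair and 85.0% and 104.8% in the K9M pair. The middle CpG, at 87245674, was at 44.4% in WT, at 0 methylated counts in both K36M libraries, and at 75.9% and 95.3% in K9M. The rightmost, at 87245969, was at 89.2% in WT, 18.5% and 11.8% in K36M replicates 1 and 2, and 83.0% and 102.9% in K9M. WT itself varied within the tile, from 4.77% at its lowest CpG to 91.1% at its highest. Both K9M libraries exceeded WT at 14 of the 15 CpGs. Outside the tile they did so at 128 of 582 CpGs, and at 65 of the 136 at 20% to 80% in WT and K9M. The tile was picked for its low K36M and high K9M levels, so nothing is read from the counts inside it.

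**Figure D1:**
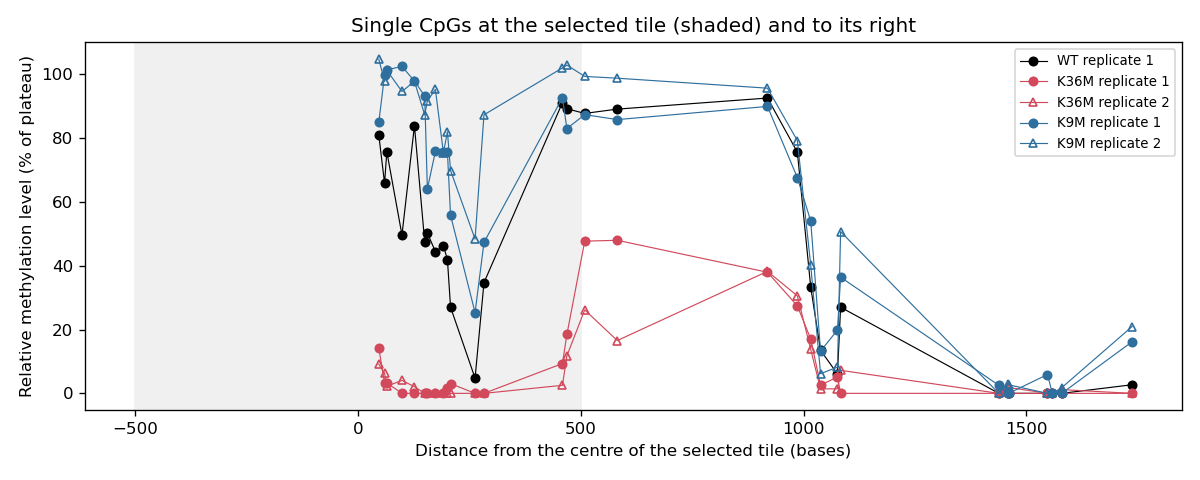
Relative methylation level (percent of plateau) of single CpGs against the distance in bases from the centre of the selected tile (shaded); black is WT, red K36M and blue K9M, filled circles are replicate 1 and open triangles replicate 2. K36M stays at or below 18.5% across the 15 CpGs of the tile, and in the group of CpGs at the far right all libraries are near 0 but for the last CpG, where K9M is at 16.2% and 21%.

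The low stretch around the selected tile was followed from CpG to CpG. Neighbouring CpGs were joined into clusters at gaps of up to 300 bases, and the stretch was followed while both K36M libraries lay at least 10 points below WT and both K9M libraries. It ran from 87245547 to 87246583, which is 1037 bases with 23 CpGs in 2 clusters. In the left cluster of 17 CpGs the levels were 65.9% in WT, 7.75% and 7.24% in the K36M pair and 80.9% and 93.7% in the K9M pair. In the right cluster of 6 CpGs they were 35.4%, 12.7%, 12.6%, 42.6% and 39.5% in the same order. Between the last CpG of the tile and 87246419 K36M was intermediate rather than near 0: the CpG at 87246009 stood at 87.8% in WT, 47.7% and 26.2% in the K36M pair and 87.4% and 99.4% in the K9M pair. At 87246419 WT was at 92.6%, and K36M was at 38.0% and 38.3%. K36M was lowest in both clusters, and the gap to WT narrowed from -58.4 points to -22.7 points.

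On the right, the stretch ended where all libraries were nearly unmethylated. After 354 bases without a measured CpG, the next cluster, from 87246938 to 87247237 and overlapping the lncRNA promoter, stood at 0.252% in WT, 0 methylated counts and 0.687% in K36M, and 3.18% and 2.15% in K9M. Its last CpG was the exception in K9M, at 16.2% and 21%, against 2.7% in WT and 0 methylated counts in both K36M libraries. A further loss in K36M could not be seen at such levels. On the left, no CpG had enough counts in all libraries for 5670 bases. The next cluster there, 2 CpGs up to 87239876, was at 88.4% in WT, 76.2% and 77.6% in K36M replicates 1 and 2, and 86.6% and 98.8% in K9M. Both K36M libraries were again lowest, but K36M replicate 2 was less than 10 points below K9M replicate 1, so by the 10-point limit the left end of the stretch falls in those 5670 bases. The length kept its value of 1037 bases without K36M replicate 1 or K9M replicate 2, and came to 8955 bases without K36M replicate 2 and 6792 bases without K9M replicate 1, as sparse clusters to the left then met the 10-point limit. At a minimum second count of 20 it came to 14707 bases. Sparse clusters to the left that had not met the 10-point limit then dropped out, so most of that length holds no measured CpG.

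Of the tiles to the right, the adjoining one followed the same order. The tile from 87246001, with 11 CpGs, stood at 35.9% in WT, 16.9% and 12.6% in the K36M pair and 41.5% and 43.1% in the K9M pair, and it was called lower in K36M than in WT (-21.1 points, adjusted p = 0.00813 by the moderated logistic model). The call was lost without K36M replicate 1 and without K36M replicate 2, at adjusted p of 0.0523 and 0.284. The tile from 87247001, with 4 CpGs, was under 5% in all 5 libraries. The tile from 87250001, with 5 CpGs, was at 71.1% in WT, 64.1% and 70.4% in K36M replicates 1 and 2, and 76.3% and 94.8% in K9M, a K36M difference from WT of -3.81 points that was smaller than the spread of the K36M replicates (SD 4.46, n = 2).

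To the left of the selected tile, the measured tiles began 13 to 15 kb away. The tile from 87230001, with 33 CpGs, was under 1% in all 5 libraries. The next, from 87231001 with 10 CpGs, stood at 14.6% in WT, 4.41% and 5.41% in the K36M pair and 14.0% and 14.9% in the K9M pair. Its adjusted p was 0.0300, but its difference of -9.69 points missed the 10-point limit of a call. The tile from 87232001, with 5 CpGs, was at 47.5% in WT, 22.5% and 21.1% in K36M replicates 1 and 2, and 36.1% and 34.0% in K9M, with an adjusted p of 0.0851 by the same model. Across these 3 tiles the level rose away from the unmethylated CpGs in every group, and it rose less in K36M.

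**Figure D2:**
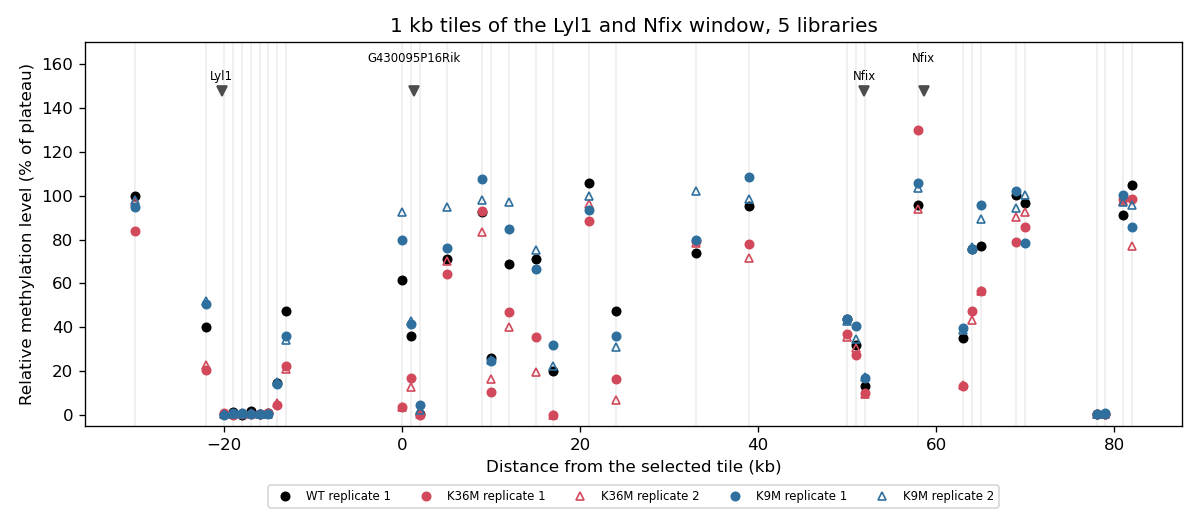
Relative methylation level (percent of plateau) of the 36 measured tiles of 1 kb against their distance in kb from the selected tile; colours and markers stand for the 5 libraries and grey triangles for placed promoters. K36M (red) lies below WT and K9M at tiles of intermediate level on both sides of the selected tile, at 3.57% on average in the selected tile itself, while the unmethylated tiles near Lyl1 and at the right coincide.

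CpGs lower in K36M recurred across the window, with tiles without a call between some of them. In part of those uncalled tiles, too, both K36M libraries were lowest. Of the 40 CpG clusters, 12 had both K36M libraries at least 10 points below the other 3 (3.45% of clusters over the autosomes), and they spread over 87498 bases, from 87223060 to 87310557. Without the cluster of the selected tile the number was 11 of 39. In 20 clusters both K36M libraries were below the other 3 by any amount (20.5% over the autosomes), and in 0 were both above. Of the 12 clusters at 20% to 80% in the mean of WT and K9M, both K36M libraries were lowest in 12 (30.4% of such clusters over the autosomes) and at least 10 points lower in 8 (10.7%), or in 11 and 7 of the 11 that leave out the selected tile. Of the 19 clusters over 80% the numbers were 6 (19.9%) and 3 (2.80%), and of the 9 under 20% they were 2 (13.7%) and 1 (0.239%). The low clusters did not form 1 continuous block. One of them, 2 CpGs from 87283381 to 87283391 outside any measured tile and named after its values were seen, stood at 75.0% in WT, 22.9% and 27.9% in the K36M pair and 97.9% and 82.2% in the K9M pair.

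K36M against WT asks where the lysine 36 mutant differs from wildtype cells. Of the 36 measured tiles, which hold 579 of the 597 CpGs, 7 were called lower in K36M and 0 higher by the moderated logistic model, at an adjusted p under 0.05 over all 152678 autosomal tiles and a difference of at least 10 points. Over all tiles, 0.477% were called lower and 0.0151% higher, and on chromosome 8 0.623% were called lower. The K36M libraries also served to pick the window, so this share is no independent evidence, and 1 of the 7 is the selected tile, whose test is not read. All 7 lay in the class at 20% to 80% in WT and K9M, which has 14 tiles in the window and of which 3.06% were called lower over the autosomes. The counts in the rest of this paragraph leave out the selected tile. Both K36M libraries were below the other 3 in 21 of the 35 other tiles, where 20.6% of all tiles had that order. The median difference of K36M from WT over the 35 tiles was -7.66 points, against -0.483 points over all tiles. Over the 13 tiles at 20% to 80% it was -21.1 points, against -3.36 points over all tiles of that class. In 13 of the 13, both K36M libraries were below the other 3, an order found in 33.2% of such tiles over the autosomes, and in 9 of them by at least 10 points, found in 10.9%. These tiles share their libraries with the selected one, so the counts describe the window and are not independent support.

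The calls depended on the test and on the K36M libraries. The counts given here are over all 36 tiles and so include the selected tile, whose test is not read. edgeR's quasi-likelihood test called 9 tiles of the window lower, but it also called more over all tiles, 2034 of 152678 against 729 by the logistic model. By limma on relative levels 0 were called in the window and 0 over all tiles, with 15 of the 36 at an unadjusted p under 0.05 (8.02% of all tiles). The logistic model called 5 when K36M replicate 1 was left out, 3 when K36M replicate 2 was, and 7 when either K9M library was. The calls over all tiles fell as well when a K36M library was left out. With levels as deposited the logistic model called 0, with 4 of 36 at an unadjusted p under 0.05 (0.150% of all tiles). That setting also called 0 of all 152678 tiles, and it leaves K9M replicate 2 on another scale. Its count of 0 is therefore not particular to the window.

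**Figure D3:**
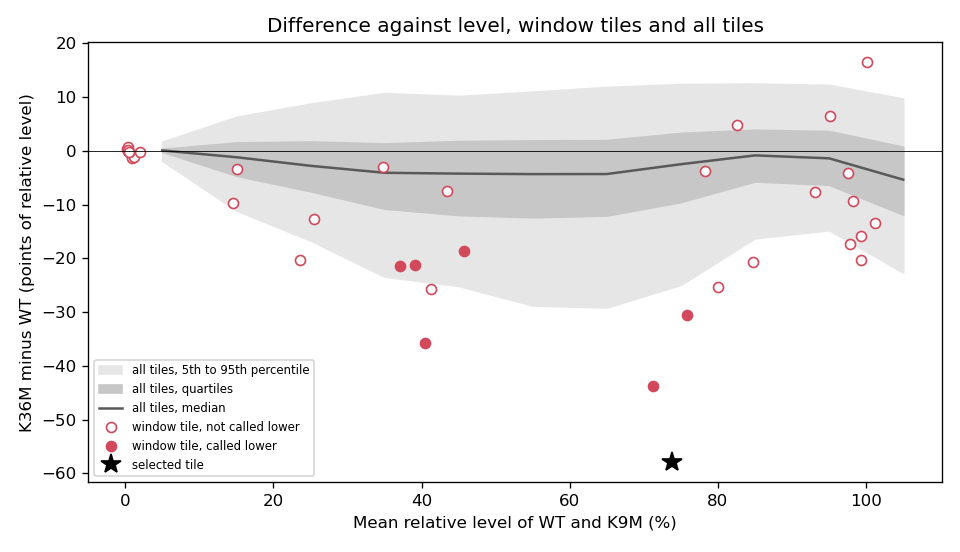
K36M minus WT in points of relative level against the mean relative level of WT and K9M in percent; points are the 36 window tiles (filled where called lower, star for the selected tile), and bands and line give the percentiles and median of all tiles in bins of 10 percent. The called window tiles lie below the quartiles of all tiles, while the unmethylated ones on the left sit near 0.

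The largest differences outside the selected tile and its neighbours lay to its right, in the direction of the Nfix promoters. The tile from 87260001, with 7 CpGs, was at 71.4% in WT, 35.8% and 19.6% in the K36M pair and 66.7% and 75.4% in the K9M pair. The K36M libraries did not overlap with the others but differed from each other, and K36M minus WT was -43.7 points (adjusted p = 0.0215 by the moderated logistic model), a call lost without K36M replicate 2 at an adjusted p of 0.130. The tile from 87269001, with 14 CpGs, stood at 47.4% in WT, 16.6% and 6.80% in K36M replicates 1 and 2, and 35.9% and 31.1% in K9M, with a difference of -35.7 points (adjusted p = 0.00549 by the same model). Here K9M was below WT too, by -13.9 points, without a call. Further right, the tile from 87309001, with 20 CpGs, was at 75.6% in WT, 47.2% and 43.1% in the K36M pair and 75.6% and 76.6% in the K9M pair. Its difference was -30.4 points (adjusted p = 0.00625), lost without K36M replicate 2 at 0.153.

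The remaining called tiles were named after their values had been seen. The tile from 87308001 joins the last one and holds 59 CpGs, the deepest of the called tiles with second counts of 2016 to 2788 per library. It stood at 35.0% in WT (95% exact counting interval 32.6% to 37.4%), 13.4% and 13.6% in the K36M pair and 39.8% and 38.6% in the K9M pair. The K36M replicates differed by less than 1 point there, and K36M minus WT was -21.4 points (adjusted p = 0.000330 by the moderated logistic model). The call was kept without each mutant library in turn. The tile from 87223001, with 8 CpGs and to the left of the Lyl1 promoter, was at 40.1% in WT, 20.4% and 22.6% in K36M replicates 1 and 2, and 50.6% and 52.2% in K9M. Its difference was -18.6 points (adjusted p = 0.0268), and the call was lost without K36M replicate 1 and without K36M replicate 2, at 0.215 each. Tiles at 20% to 80% without a call were lower in K36M as values only. The tile from 87262001, with 3 CpGs, had 0 methylated counts in both K36M libraries, which allows up to 7.71% and 4.58%, and stood at 20.3% in WT and 31.7% and 22.2% in K9M (adjusted p = 0.123). Beside the Nfix promoter, the tile from 87295001 with 17 CpGs was at 43.7% in WT, 36.8% and 35.7% in the K36M pair and 43.8% and 42.8% in the K9M pair (adjusted p = 0.551), and the one from 87296001 differed by -3.04 points (adjusted p = 1.0).

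The densest CpGs of the window were nearly unmethylated in every library. The 2 tiles richest in CpGs, from 87323001 and from 87324001 with 92 and 99 CpGs, lay between 0.292% and 0.696% in the 5 libraries, on second counts of 3873 to 6102. The unmethylated run that starts at the Lyl1 promoter, 6 tiles from 87225001 to 87231000 with 123 CpGs, was under 2% in every library. Of the 11 tiles under 20% in WT and K9M, 0 were called lower in K36M against WT (0.349% of such tiles over the autosomes), 0 had both K36M libraries at least 10 points below (0.150%) and 5 had them below by any amount (12.2%). At the other extreme were the 11 tiles over 80% in WT and K9M. Their means were 94.0% in WT, 88.2% and 85.0% in the K36M pair and 95.7% and 97.9% in the K9M pair. Of these tiles, 0 were called in K36M against WT (0.0579% over the autosomes). Their median difference of K36M from WT was -9.23 points, against -1.79 points over all tiles of that class. Both K36M libraries were below the other 3 in 3 of them (20.8% over the autosomes), and by at least 10 points in 2 (2.54%). The tile from 87303001, with 4 CpGs, read 130.0% in K36M replicate 1 on a second count of only 50.

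Single CpGs were counted in the same way. Of the 582 CpGs outside the selected tile, 172 had both K36M libraries below the other 3, where the share over the autosomes was 10.8%. Among the 136 of them at 20% to 80% in WT and K9M it was 103, where the share over the autosomes was 24.0%. Neighbouring CpGs share reads, and these counts have no test. The mean level over the 582 CpGs was 24.7% in WT, 17.9% and 17.2% in K36M replicates 1 and 2, and 25.8% and 26.4% in K9M, so the K36M libraries lay -7.15 points from WT and K9M lay 1.38 points above it. Without K9M replicate 2, the library read on another scale, the K36M difference was -7.19 points. That library enters this difference only through the choice of tiles that set the plateaus, so leaving it out does not check its scale.

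K9M against WT gave 0 called tiles in the window in either direction, by the logistic model, by edgeR and by limma, with 3, 6 and 5 of 36 at an unadjusted p under 0.05 by these tools in turn, where the shares over all tiles were 2.88%, 4.68% and 5.63%. Over all tiles, 0.0275% were called lower and 0.0504% higher in this comparison. The largest K9M differences outside the selected tile and its neighbours were gains without a call. The tile from 87257001, with 3 CpGs, was at 68.9% in WT (95% exact counting interval 47.5% to 99.6%), 84.8% and 97.3% in K9M and 46.8% and 40.3% in K36M. The tile from 87278001, with 5 CpGs, was at 74.0% in WT, 79.9% and 102.3% in K9M and 79.2% and 78.4% in K36M. The tile from 87310001, with 13 CpGs, was at 77.2% in WT, 95.6% and 89.2% in K9M and 56.6% and 56.3% in K36M. In the last, WT lay between the mutants, as in the selected tile, and neither mutant was called against WT there.

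K36M against K9M, the contrast by which the window was picked, called 9 of 36 tiles lower and 0 higher, where 1.23% and 0.0734% of all tiles were called. These counts describe the window and nothing is read from them. Both comparisons with K36M share its libraries.

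Beside the window, few tiles were low in K36M. In the 115 kb to the left of it, 0 of 26 measured tiles were called lower in K36M than in WT and 0 had both K36M libraries at least 10 points below the other 3, and to the right the counts were 0 and 0 of 26. These stretches held only 2 and 5 tiles at 20% to 80% in WT and K9M, the class of all the calls, against 14 in the window. Inside the window, 12 of 36 tiles, the selected one among them, had both K36M libraries at least 10 points below, where 3.07% of all tiles did. Over 500 kb the left side had 0 calls and 1 such tile among 73, and the right side 0 calls and 1 among 108. Over this longer distance there were 14 tiles at 20% to 80% on either side, with median differences from WT of 0.650 points on the left and -3.41 points on the right. These stretches were chosen after the values had been seen, and a difference between the window and its flanks was not tested.

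**Figure D4:**
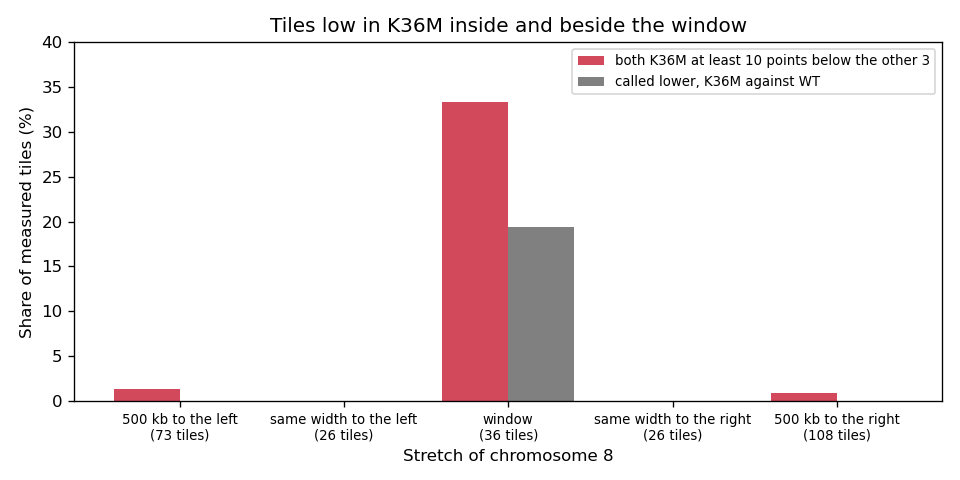
Share in percent of the measured 1 kb tiles that had both K36M libraries at least 10 points below the other 3 (red) or were called lower in K36M against WT (grey), for the window and for stretches on either side of it on chromosome 8. The window has 12 of 36 tiles in the red class, the selected tile included, and the stretches of the same width beside it have 0 of 26 each.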

How the data were processed

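The 5 deposited tables list 1 line per CpG. Per the labels' protocols, DNA was cut with MspI and bisulfite-converted; cutadapt, BSMAP and mm9 are listed in the submitters' processing notes, and versions, settings and deduplication are not given in the sources used here. The deposited level is a fraction and the deposited total a count per CpG. The methylated count is their rounded product, whole within 0.01 for 100.0% of CpGs in 4 libraries and for 89.2% in K9M replicate 2. The second count is the total minus it, or the total itself in K9M replicate 2. CpGs needed a second count of 10 in all libraries, and 1 kb tiles needed 3 CpGs. The plateau is each library's median ratio at the most methylated 20% of tiles, ranked by their mean rank across libraries.

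All 152678 autosomal tiles were fitted with a logistic quasi-binomial model (5 libraries, log plateau as offset, 2 residual degrees of freedom, dispersion moderated with limma 3.58.1 in R 4.3.3 and held at or above 1, F test, Benjamini-Hochberg adjustment). WT has 1 library and is assumed to vary like the mutants. In K9M replicate 2 the methylated count cannot exceed the second count, so the counting spread that the model assumes may not hold there. That library enters the shared dispersion, and its part in it was not tested. edgeR 4.0.16 and limma on levels were alternatives. Counting intervals and the limit of 3 counts for a count of 0 cover counting error only, since reads may not be independent molecules. The fit was tested on simulated data whose spread came from the fit itself; an earlier test with a larger, constant spread made no correct calls. Named tiles are the selected tile, 3 measured tiles on either side, the 3 others with the largest K36M and K9M differences from WT, and those with placed promoters. Promoters were to be placed by at least 8 matching CpGs, with none unmatched. In the window at least 3 were accepted at an unchanged distance from Ccdc130. The members, lists and tests were chosen with earlier results of these data known.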

Additional observations from a re-analysis of the deposited data

How the results depend on the processing

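The count of window tiles called for K36M against WT was 7, the selected tile among them. It was 6 to 8 under the plateau from the top 40% of tiles, other minimum counts and shifted tiles. It was 0 with levels as deposited, 0 with limma on relative levels, and 3 to 7 with 1 mutant library left out. For K36M against K9M the count of 9 fell to 0 with levels as deposited and 0 with limma, and was 6 to 9 with 1 mutant library left out. All 6 called tiles other than the selected one lost the call with levels as deposited, with limma and with the block described next, and those from 87223001 and 87260001 also at a minimum second count of 5. Over all tiles, 729 were lower in K36M than in WT, against 2034 with edgeR, 0 with limma, 229 without K36M replicate 1 and 75 without K36M replicate 2. The labels say nothing of pairing by replicate number: the deviations of same-numbered mutant libraries correlated at 0.0773 over tiles, and with a replicate block, which leaves 1 residual degree of freedom, the counts were 0 against WT and 2 against K9M. K9M against WT stayed at 0 calls under all 12 alternatives. The stretch of 1037 bases kept its length under 6 of 12 alternatives. It was 1691 bases at a minimum second count of 5 or with clusters joined at 1000 bases, which takes in the nearly unmethylated cluster on the right. It was 14707 bases at a minimum of 20, mostly without a measured CpG, and 6792 bases with a limit of 5 points. With 1 mutant library left out it was 1037 to 8955 bases. The mean difference of K36M from WT outside the selected tile, -7.15 points, was -4.11 points with levels as deposited and -5.51 points with pooled counts, and -6.78 to -7.52 points with 1 mutant library left out. The cause of these changes was not tested. With levels as deposited, with limma and with the replicate block, 0 of all 152678 tiles were called for K36M against WT. The calls lost in these settings are therefore not particular to the window. Levels as deposited also leave K9M replicate 2 on another scale. Depth limits the sparse tiles, where 3 counts amount to 7.71% at most in K36M replicate 1 in the tile from 87262001.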

Other observations

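The placed promoters of genes related to Lyl1 or working with it in blood progenitors were nearly unmethylated in all 5 libraries. Of 14 such genes listed, 10 had 19 promoters in the RefSeq table. Of these, 12 promoters of 9 genes were placed by the spacing of their CpGs. Placement needed at least 8 matching CpGs, so promoters with fewer CpGs could not enter. The highest level in any of the 12 and any library was 1.10%, at Tal2. At such levels K36M cannot lie 10 points below the others, so the count of 0 of the 12 with that order was fixed by the levels. Over the autosomes, 0.150% of the tiles under 20% in WT and K9M had it. Tal1, the closest relative of Lyl1, had 0 methylated counts over 6 CpGs in every library, which allows up to 2.77% in K36M replicate 2, the shallowest. The Gata2 promoter with 26 measured CpGs, of a zinc finger factor of blood stem cells, stood at 0.0676% in WT, 0.309% and 1.03% in the K36M pair and 0.0863% and 0.360% in the K9M pair. Hhex, a homeobox factor of early blood progenitors, was at 0.535% in WT, 0.186% and 0.219% in K36M replicates 1 and 2, and 0.476% and 0.175% in K9M. Of the other nuclear factor I genes, the promoters of Nfia and Nfic were not placed by their spacing, and Nfib had no promoter in the RefSeq table. None of them has a level here.

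Among 40366 other tiles with at least 10 CpGs, the one most like the selected tile lay on chromosome 17 from 45654001 to 45655000 with 21 CpGs, at a Euclidean distance of 28.9 points over the 5 libraries. It stood at 50.5% in WT, 21.6% and 17.5% in the K36M pair and 84.1% and 79.0% in the K9M pair. The second, on chromosome 10 from 126763001 to 126764000, was 33.6 points away. The third, from 88281001 to 88282000 on chromosome 11, was 35.7 points away. In all 3 the order was K36M, WT, K9M, and the lowest K36M level among them was 15.0%, above the 3.57% mean of the selected tile. The 3 were chosen for likeness in all 5 libraries, so the shared order follows from that choice. The selected tile was itself picked for its low K36M level, so nothing is read from its being lower.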
